A study of Homo sapiens with 9 samples.

Results

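The transcripts described here are the nonsense-mediated decay (NMD) transcripts of HEK293 cells, a human embryonic kidney line. They are the RNAs that GENCODE gives this transcript type on the genome build GRCh37 and that reached a TPM of 1 or more in at least 3 of 9 samples. TPM is an abundance per transcript length, scaled so that it sums to the same total in every sample. The rule kept 2814 of the 13376 NMD transcripts in the files (21.0%), which made up 6.02% of the 46718 transcripts of any type that reached the same level. Since measured TPM chose the members, their being detected is no result. The third highest TPM was 1.0004 for NARF-218 and TOR2A-209, the members closest to the limit, and 0.99999 for SLC19A3-205 and 0.99994 for CENPJ-205, which stayed outside.

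RNA was sequenced from nuclear and cytoplasmic fractions of HEK293 cells after control siRNA or after siRNAs against WTAP and KIAA1429 (also VIRMA or Virilizer), subunits of the complex that deposits N6-methyladenosine on mRNA. The study asked whether losing these subunits changes how RNAs divide between nucleus and cytoplasm. There were 3 control nuclear samples, 3 RNAi nuclear samples, 2 RNAi cytoplasmic samples (replicates 1 and 2) and 1 control cytoplasmic sample (replicate 2). All were from 1 cell line and all received siRNA, the RNAi samples both siRNAs together, and the fractions were made from whole cultures. The study's methods give the T-antigen derivative of the line. Nothing in the labels says that replicates were separate cultures, so p-values measure the spread between these samples, which may be technical.

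NMD is a surveillance pathway that destroys mRNAs whose reading frame ends too early. Splicing leaves an exon junction complex near each junction, and the first ribosome normally strips these complexes off. When a ribosome stops well before the last junction, a complex left downstream recruits UPF2 and UPF3B to UPF1, the helicase at the heart of the pathway, SMG1 phosphorylates UPF1, and nucleases such as SMG6 then degrade the RNA. The decay needs translation and is mostly cytoplasmic. Many genes make such RNAs by including a "poison" exon that carries a stop codon, and splicing factors are known for limiting their own expression in this way.

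The 2814 members came from 2122 genes, all annotated as protein coding. Of these genes, 1634 had 1 member and 488 had 2 or more, with a maximum of 9 for DMKN, so many members share exons and are not independent. The median member was 995 nt long (quartiles 692 and 1936), against 1873 nt for detected coding transcripts and 761 nt for detected retained-intron transcripts. An annotated stop codon was present in 2810 members. It lay a median of 311 nt before the last exon junction (quartiles 152 and 660.5, range 14 to 7609). In 2809 members this distance was 50 nt or more, which is what the annotation uses to assign the type, while 93.9% of the 18704 detected coding transcripts of 2 or more exons ended in their last exon. There was 1 junction after the stop in 762 members and 2 or more in 2048.

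The stop codon could sit in different kinds of exon. In 1275 members it lay in an exon that a coding transcript of the gene also has, unchanged, so that the frame had shifted upstream or the untranslated end was spliced. In 959 members the exon overlapped one of a coding transcript but had other ends, and in 524 members it was in an exon found in no coding transcript. The gene of 52 further members had no coding transcript to compare with, and 4 had no annotated stop. A group of 332 members ended at the very stop codon of a coding transcript and so differ downstream of it, with a median of 166 nt to the last junction.

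The ends of the reading frames of 10 members are shown because the comparisons below turn on them. Each line holds the last 30 nt of the annotated coding sequence, 5′ to 3′, with the stop codon in capitals, read from GRCh37 with GENCODE version 44 coordinates. The first 6 are splicing-factor members that stop in an exon of no coding transcript.
SRSF3-203: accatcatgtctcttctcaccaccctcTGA
SRSF6-202: gccatgacgacagcagccttttgccatTAG
U2AF2-203: tgtcttctctggctccccagctcctccTGA
SON-206: cttggcccccgttcctcactcctcttgTGA
RBM39-219: tttgattccagtgtgaactgtcaatcaTAA
TRA2B-205: aatgagtatttgaagctcaggaataagTGA
HNRNPA1-205: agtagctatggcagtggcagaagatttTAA
HNRNPA2B1-203: gggggttatggtgggaggagccgatacTGA
KAT2A-202: accctcatcctcactcacttccccaagTAA
RPS2-212: ctcaccaaacaagagaaaaagggcaaaTAG
These windows are chr6:36567602-36567631 (+) for SRSF3-203, chr20:42087915-42087944 (+) for SRSF6-202, chr19:56170308-56170337 (+) for U2AF2-203, chr21:34941906-34941935 (+) for SON-206, chr20:34328448-34328477 (−) for RBM39-219 and chr3:185649560-185649589 (−) for TRA2B-205. The window of RBM39-219 is shared by RBM39-207, RBM39-208 and RBM39-216, which end in the same exon. HNRNPA1-205, at chr12:54678068-54678097 (+), and HNRNPA2B1-203, at chr7:26232136-26232165 (−), end at the stop codon of a coding transcript of their gene. KAT2A-202, at chr17:40271259-40271288 (−), stops in an exon with other ends, and RPS2-212, at chr16:2013742-2013771 (−), in an exon of no coding transcript.

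Estimated counts per sample ranged from 11627403 to 19036141, the control cytoplasmic sample being the deepest, and the members held 1.96% to 2.46% of them. Both siRNA targets fell. WTAP, whose gene-level CPM (counts scaled by library size) were 24.1, 27.6 and 23.0 in control nuclei and 12.2, 14.3 and 15.55 in RNAi nuclei, fell by 0.83 ± 0.13 on the log2 scale (± standard error; edgeR adjusted p = 0.0169). VIRMA, at 13.6, 13.15 and 19.8 against 9.18, 5.56 and 6.97 CPM, fell by 1.08 ± 0.21 (edgeR adjusted p = 0.0314). In the cytoplasm WTAP was at 37.5 CPM in the control sample and at 10.8 and 11.9 after RNAi. A list of nuclear-retained RNAs that includes MALAT1 and NEAT1 summed to 99.35 to 125.9 TPM in nuclei and 20.7 to 38.6 TPM in cytoplasm, and the cytoplasmic mRNAs ACTB, EEF1A1, GAPDH and TUBA1B were lower in RNAi nuclei than in RNAi cytoplasm by 0.54 to 1.25 (log2). Of the 8 mitochondrially encoded mRNAs on the same list, MT-CO1 and MT-CYB were higher in RNAi nuclei, by 0.73 and 0.71, and MT-ND2 was lower. In control, 3 of the 12 listed genes were higher in nuclei (MT-CO1, MT-CO3 and MT-CYB, by 1.33 to 1.66) and 3 lower. The whole list summed to 188000 to 279500 TPM in nuclei and 130800 to 191200 TPM in cytoplasm, so its sum was not lower in nuclei. All 6 HEK293 marker genes (VIM, KRT8, KRT18, NEFM, INA and CDH2) reached 1 TPM in every sample, and 3 to 7 of 10 genes of other cell types were at 0. Others on that list of 10 were present, with COL1A1 at 12.34 to 17.74 TPM, HBA1 at 16.16 to 47.38 and GFAP at 0.8631 to 7.508.

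More members were detected in nuclei than in cytoplasm, while their pooled weight in their genes hardly differed. At 1 TPM or more there were 2082, 2190 and 2178 members in the control nuclei, 2228, 2234 and 2266 in the RNAi nuclei, 1831 in the control cytoplasm, and 1737 and 1589 in the RNAi cytoplasm. The nuclear samples all lay above the cytoplasmic ones, and the RNAi nuclei above the control nuclei. The rule that chose the members used the same limit and drew on 6 nuclear but only 3 cytoplasmic samples. It therefore favoured nuclei, and the order of the fractions in these counts is no result about the members. The same counts for all transcripts are not given here, so the order of RNAi and control nuclei is no result about the members either. Pooled over members, they made up 13.4% to 13.7% of the TPM of their genes in the 6 nuclei and 12.7% to 13.2% in the 3 cytoplasmic samples, so the fractions did not overlap but were less than 1 percentage point apart. The median member held 8.81% to 10.02% of its gene in nuclei and 7.74% to 8.61% in cytoplasm. The rule favoured nuclei in the pooled and median shares too, so their order between fractions is no result about the members. A member held over 50% of its gene in 243 to 275 cases per nuclear sample, fewer than the 315 to 336 per cytoplasmic sample. Fewer cells holding an RNA and less of it per cell cannot be told apart in such samples.

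**Figure D1:**
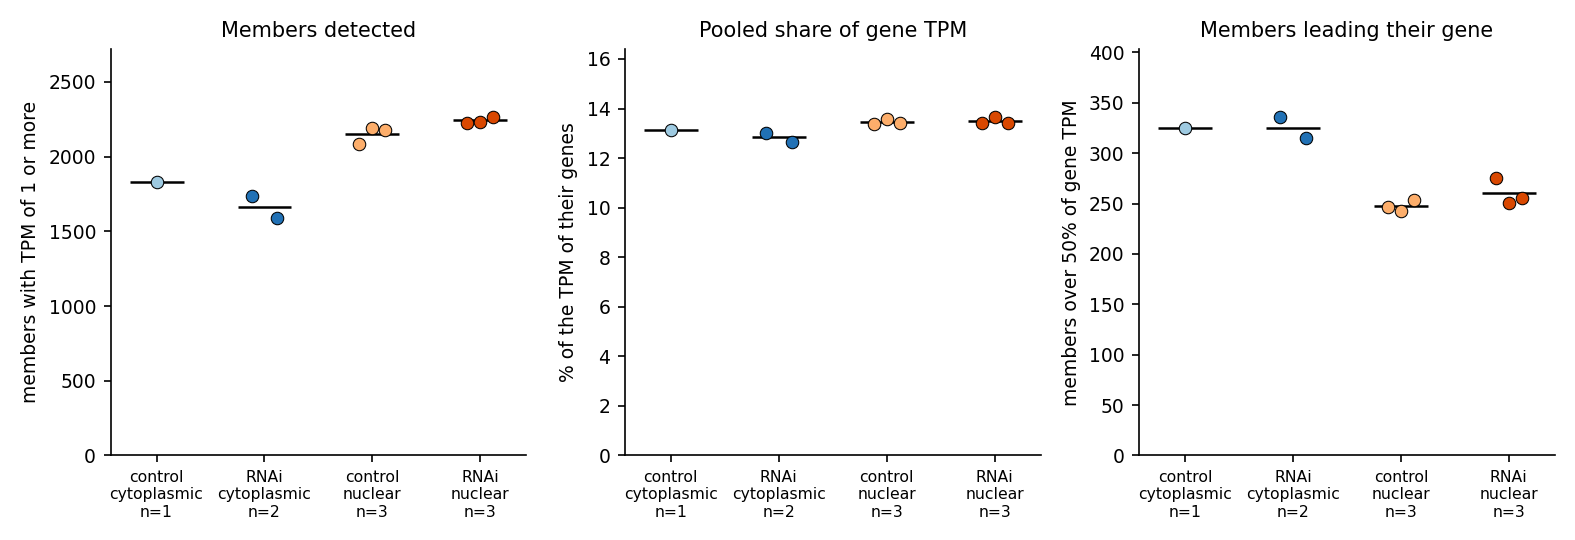
Each point is 1 sample and each bar a group mean, with the y axes showing the number of members at 1 TPM or more, the percent of their genes' TPM that all members held together, and the number of members above 50% of their gene. Nuclei (2082 to 2266 members detected) lie above cytoplasm (1589 to 1831) in the left panel and below it in the right panel (243 to 275 against 315 to 336), while the pooled share stays between 12.7% and 13.7%. The rule that chose the members drew on more nuclear than cytoplasmic samples, which favours nuclei in the left panel and in the pooled share.

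Most members were rare and a few abundant. The median of the mean TPM was 2.03, with 374 members at 10 TPM or more and 27 at 100 or more, and the 10 highest held 23.8% of all TPM of the members. In all 9 samples 926 members reached 1 TPM, and 1027 were at 0 in at least 1 sample. In nuclear samples alone 662 reached it, 207 of them in all 6 nuclei, against 13 in cytoplasmic samples alone. By the rule, a member of cytoplasm alone had to reach 1 TPM in all 3 cytoplasmic samples, and one of nuclei alone in only 3 of 6. The 662 and 13 therefore follow in part from how members were chosen.

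The 8 highest members belonged to housekeeping genes. ACTG1-213, from the gene of cytoskeletal gamma-actin, was at 1276 TPM in the control cytoplasm, 1060, 913.5 and 1021 in the control nuclei, 2186 and 1624 in the RNAi cytoplasm, and 1018, 1317 and 1265 in the RNAi nuclei. It held 48.4% to 74.9% of the TPM of its gene, and after RNAi it was lower in nuclei than in cytoplasm by 1.01 ± 0.16 (log2; edgeR adjusted p = 0.00341). FTH1-208, from the ferritin heavy chain gene, was at 1329 TPM in the control cytoplasm, 509, 711 and 540 in the control nuclei, 1851 and 1704 in the RNAi cytoplasm, and 343, 520 and 416.5 in the RNAi nuclei. Every cytoplasmic sample of FTH1-208 lay above every nuclear one, and its level fell by 2.41 ± 0.12 (log2) from RNAi cytoplasm to RNAi nuclei (edgeR adjusted p = 0.000113), as the whole gene did, by 2.60 ± 0.13. The share of FTH1-208 in its gene did not pass the test there (limma adjusted p = 0.692).

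NDUFS7-205 (respiratory complex I), RPS3-216 (small ribosomal subunit), POLR2L-202 (a subunit shared by the RNA polymerases), GABARAP-202 (autophagosome formation) and RPL18-206 (large ribosomal subunit) made up the other high members apart from SRRM2-216. NDUFS7-205 held 82.1% to 86.0% of its gene and RPS3-216 67.9% to 75.3% in all samples, which are shares of a leading isoform. After RNAi the levels of GABARAP-202, RPL18-206, RPS3-216 and NDUFS7-205 were lower in nuclei than in cytoplasm by 0.66 to 1.2 (log2; edgeR adjusted p = 0.00180 to 0.0119), while POLR2L-202 differed by -0.67 ± 0.29 and did not pass (edgeR adjusted p = 0.118). In none of these 5 did the share of the gene pass the limma test.

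SRRM2-216 went the other way. SRRM2 encodes a scaffold protein of nuclear speckles, and this member, on chromosome 16 at 2820356-2821411, has 4 exons and 1 junction after the stop. It was at 87.0 TPM in the control cytoplasm, 613, 1507 and 998.5 in the control nuclei, 131 and 150 in the RNAi cytoplasm, and 636, 870.5 and 683 in the RNAi nuclei. All 6 nuclei were above all 3 cytoplasmic samples, by 2.00 ± 0.30 (log2) after RNAi (edgeR adjusted p = 0.00296) and by 3.31 ± 0.44 in control (edgeR adjusted p = 0.00451). SRRM2 as a gene was higher in RNAi nuclei by 2.02 ± 0.17, and the share of SRRM2-216 was 25.7% to 48.6% in nuclei and 22.1% to 33.7% in cytoplasm, with overlap.

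RNAi of WTAP and KIAA1429 left no member past the thresholds in nuclei. A call needs a Benjamini-Hochberg adjusted p under 0.1 and a log2 fold change beyond 0.5 in edgeR's quasi-likelihood test over all 50857 transcripts that kept 10 or more estimated counts in 3 or more samples. Of the members, 2470 entered this test and 344 had too few counts. In RNAi against control nuclei 0 members were called, beside 0.0% of all transcripts, with 220 members at an unadjusted p under 0.05. DESeq2 called 45 higher and 31 lower, and limma on log2 TPM called 5 and 3 or 2 and 4, depending on the pseudocount. The median member differed by 0.05 (log2), against 0.00 for all transcripts tested, -0.07 for coding and 0.11 for retained-intron transcripts.

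These transcript estimates varied much more than gene totals, with a biological coefficient of variation of 0.521 for transcripts and 0.138 for genes in the edgeR fits. A member such as U2AF2-203, from the gene of the large U2AF subunit that recognises polypyrimidine tracts, shows what did not pass. It was at 17.15, 27.4 and 22.65 TPM in control nuclei and 36.8, 39.5 and 39.7 in RNAi nuclei. The groups did not overlap, but the difference of 0.77 ± 0.16 (log2) had an edgeR adjusted p of 0.205.

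**Figure D2:**
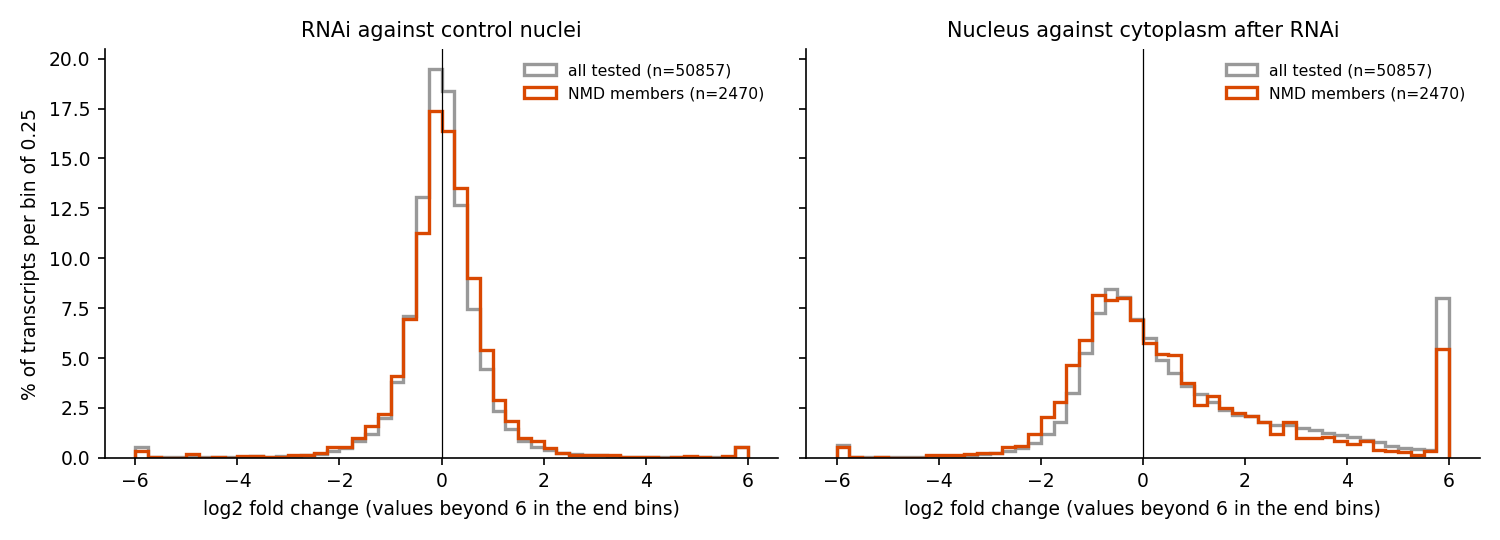
Distributions of the log2 fold change over 2470 members (orange) and all 50857 transcripts tested (grey), as percent of transcripts per bin of 0.25, for RNAi against control nuclei and for nucleus against cytoplasm after RNAi. The member curve is centred near 0 in the left panel (median 0.05) and spreads widely in the right one (median -0.03), with values beyond 6 in either direction collected in the end bins.

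The share of a gene changed in nuclei for 3 members. The share was tested as the log2 odds of a transcript against the rest of its gene, with 0.5 TPM added to both, in limma over 38530 transcripts, 2414 of them members. In RNAi against control nuclei 1 member was called higher and 2 lower, beside 0.026% and 0.0285% of all transcripts. NDUFA7-203, of another complex I subunit, was at 0 TPM in all 3 control nuclei and at 2.98, 4.19 and 1.86 in RNAi nuclei, where it made up 1.54%, 2.12% and 0.889% of its gene (log2 odds 2.88 ± 0.37, limma adjusted p = 0.0796). It was at 3.39 TPM in the control cytoplasm and at 0 in both RNAi cytoplasmic samples. DNPEP-203, of aspartyl aminopeptidase, was at 3.25, 2.53 and 4.53 TPM in control nuclei and at 0, 0.380 and 0 in RNAi nuclei, and its share went from 14.6%, 8.64% and 15.9% to 0%, 1.30% and 0% (log2 odds -2.99 ± 0.38, limma adjusted p = 0.0796). AREL1-208, named after its values were seen because it was the only other call, was at 1.37, 1.69 and 2.31 TPM in control nuclei and at 0, 0.0276 and 0.0617 in RNAi nuclei. The limma adjusted p of AREL1-208 was 0.0796 as well.
All 3 calls rest on transcripts at or near 0 in 1 group, and leaving out any of the RNAi nuclear samples or the third control nuclear sample gave 0 calls, and either RNAi cytoplasmic sample or the second control nuclear sample 1.

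After RNAi, members divided between the fractions in both directions. In RNAi nuclei 544 members were higher than in RNAi cytoplasm (22%) and 355 lower (14.4%), beside 28.0% and 14.7% of all transcripts tested. Among all detected transcripts, chosen by the same TPM rule, the shares were 26.5% and 18.4%. Coding transcripts were more often lower (14.0% higher, 25.6% lower) and retained-intron transcripts mostly higher (62.9% and 4.41%), with the members between them. The median member differed by -0.03 (log2), all transcripts by 0.18. On log2 TPM values in limma, which are not rescaled between samples, the split was 691 higher and 192 lower with 0.1 added and 677 and 228 with 1 added, while the median of all transcripts was 0.49 and 0.24.

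The count of higher members depends on how members were chosen. A transcript that reached 1 TPM in nuclei alone had to be nuclear, and of the 544 higher members 103 were at 0 in all samples of 1 group, against 5 of the 355 lower ones. Among the 2139 members that reached 1 TPM in at least 1 nuclear and 1 cytoplasmic sample, a restriction added after seeing the data, 1962 were tested, with 205 higher (10.4%) and 347 lower (17.7%). For all transcripts detected in both fractions these shares were 12.5% and 23.2%, for coding transcripts 9.12% and 28.1%, and for retained-intron transcripts 29.0% and 9.86%.

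**Figure D3:**
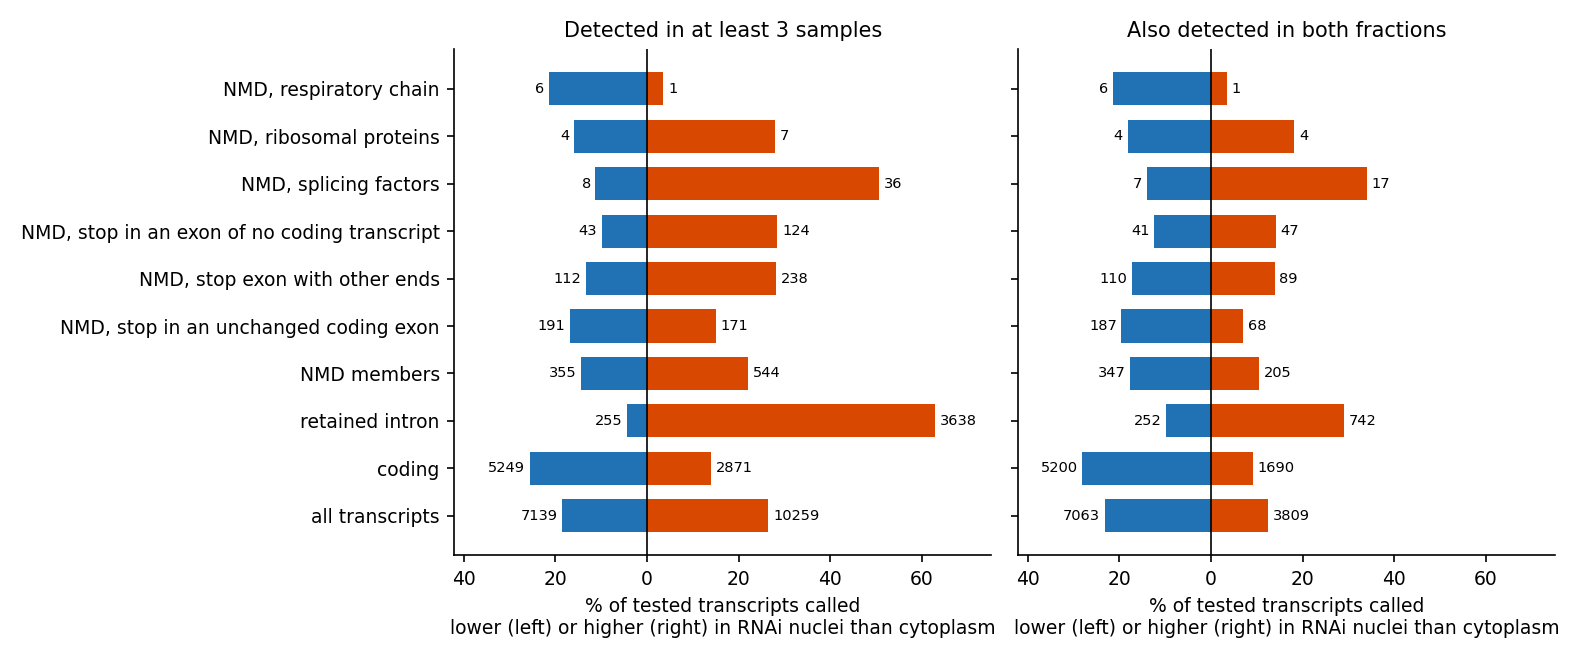
Bars give the percent of tested transcripts called lower (blue, to the left) or higher (orange, to the right) in RNAi nuclei than in RNAi cytoplasm, with the number called at the end of each bar, for all detected transcripts, transcript types, and classes and gene lists of NMD members. Splicing-factor members are called higher most often among the NMD groups (36 of 71, left panel), and the counts of higher calls shrink for every group but the respiratory chain among transcripts detected in both fractions (right panel).

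Members with a changed stop exon were called higher about as often as all transcripts tested, of which 28.0% were higher and 14.7% lower. Members with an unchanged stop exon were called higher less often. Of 436 tested members that stop in an exon of no coding transcript, 124 were higher in RNAi nuclei (28.4%) and 43 lower (9.86%), and 25 were lower without the first RNAi cytoplasmic sample. Of 843 whose stop exon has other ends, 238 were higher (28.2%) and 112 lower (13.3%). Of 1141 that stop in an unchanged coding exon, 171 were higher (15.0%) and 191 lower (16.7%). Within members detected in both fractions the counts were 47 and 41 of 330, 89 and 110 of 640, and 68 and 187 of 958, so higher calls no longer outnumbered lower ones by much in any class. All transcripts detected in both fractions, whose shares are given above, were also called lower more often than higher. Members that keep the stop codon of a coding transcript gave 74 higher and 40 lower of 297. The difference between classes was not tested.

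Splicing-factor genes gave 75 members from 49 genes, of which 71 were tested. In RNAi nuclei 36 were higher than in RNAi cytoplasm (50.7%) and 8 lower (11.3%), beside 28.0% and 14.7% of all transcripts, with a median of 0.88 (log2) against -0.03 for all members. Of the 50 detected in both fractions, 17 were higher (34.0%) and 7 lower (14.0%), beside 12.5% and 23.2% of all transcripts detected in both. The difference was not tested. Lower calls were 5 without the second RNAi cytoplasmic or the third RNAi nuclear sample.

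SR proteins are splicing activators with a serine- and arginine-rich domain, and members of SRSF1, SRSF3, SRSF4, SRSF5, SRSF6, SRSF7 and SRSF11 were among the 36. SRSF3-203 was at 31.3 TPM in the control cytoplasm, 34.0, 47.0 and 38.1 in control nuclei, 27.3 and 21.0 in RNAi cytoplasm, and 39.6, 45.6 and 45.9 in RNAi nuclei. The RNAi nuclei lay above the RNAi cytoplasm, by 0.52 ± 0.12 (log2; edgeR adjusted p = 0.0137), although the gene fell by 0.79 ± 0.11 from cytoplasm to nuclei. SRSF3-203 therefore took a larger part of SRSF3 in nuclei, 51.2% to 56.4% after RNAi against 34.6% and 32.9% in cytoplasm (log2 odds 1.18 ± 0.20, limma adjusted p = 0.00358). In control the share was 46.6% to 49.75% in nuclei and 33.2% in cytoplasm.

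SRSF6-202 was at 45.6 TPM in the control cytoplasm, 34.8, 40.25 and 38.9 in control nuclei, 23.8 and 14.9 in RNAi cytoplasm, and 35.6, 38.5 and 41.2 in RNAi nuclei. It was the leading isoform of its gene in every sample, with 69.7% to 83.5%. The RNAi nuclei exceeded the RNAi cytoplasm by 0.66 ± 0.16 (log2; edgeR adjusted p = 0.0178), whereas the control cytoplasm lay above all 3 control nuclei. The share of SRSF6-202 did not pass the test (limma adjusted p = 0.785). SRSF5-211, which keeps the stop codon of a coding transcript, was at 0.285 TPM in the control cytoplasm, 10.3, 18.15 and 14.3 in control nuclei, 0 and 0.157 in RNAi cytoplasm, and 14.3, 18.1 and 16.3 in RNAi nuclei. Its share was 11.7% to 18.6% in nuclei and at most 0.391% in cytoplasm. SRSF5-211 stayed below 1 TPM in every cytoplasmic sample, so the rule admitted it through nuclei alone and its side is no result.

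ACIN1-206, SON-206 and SNRNP70-202, of other spliceosome and speckle genes, also had higher TPM in nuclei. SON-206 and SNRNP70-202 stayed below 1 TPM in all 3 cytoplasmic samples. The rule could therefore admit both only through nuclei, and their nuclear side is no result. ACIN1-206, whose protein joins the exon junction complex, was at 6.39 TPM in the control cytoplasm, 41.6, 51.4 and 51.9 in control nuclei, 5.96 and 3.83 in RNAi cytoplasm, and 45.0, 48.6 and 46.9 in RNAi nuclei (2.92 ± 0.17 on the log2 scale after RNAi, edgeR adjusted p = 0.000144). The gap between fractions was larger than the spread in either. SON-206, from the gene of a large speckle protein, was at 0.357 TPM in the control cytoplasm, 7.28, 7.83 and 8.30 in control nuclei, 0.715 and 0.167 in RNAi cytoplasm, and 13.2, 13.6 and 10.7 in RNAi nuclei. Its level differed by 4.48 ± 0.53 after RNAi (edgeR adjusted p = 0.00120) while the gene SON differed by 0.19 ± 0.11, which was not called. SNRNP70-202, of the U1 snRNP protein, was at 0.751 TPM in the control cytoplasm, 5.89, 7.44 and 6.99 in control nuclei, 0.275 and 0.572 in RNAi cytoplasm, and 11.2, 12.1 and 11.7 in RNAi nuclei.
In SON-206 and SNRNP70-202 the RNAi nuclei lay above the control nuclei without overlap, and neither difference passed edgeR's test (adjusted p = 0.639 and 0.387).

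U2AF2-203 was at 7.52 TPM in the control cytoplasm and at 7.70 and 5.78 in RNAi cytoplasm, below every nuclear value given above. After RNAi it was higher in nuclei by 2.18 ± 0.19 (log2; edgeR adjusted p = 0.000472), and its share was 20.2% to 23.5% in RNAi nuclei, 14.1% to 15.1% in control nuclei and 3.73% to 5.71% in the 3 cytoplasmic samples. The gene U2AF2 moved the other way between fractions, by -0.54 ± 0.13. U2AF2-207 differed in the same direction, by 2.80.

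HNRNPA1 had members on both sides. HNRNPA1 encodes an abundant hnRNP protein that shuttles between nucleus and cytoplasm. HNRNPA1-210, on chromosome 12 at 54675579-54676270, was at 1.5 TPM in the control cytoplasm, 26.3, 33.4 and 26.2 in control nuclei, 0 in both RNAi cytoplasmic samples, and 37.2, 31.4 and 33.1 in RNAi nuclei. With a floor of 3 counts in each library it was at least 54.55-fold higher in RNAi nuclei than in RNAi cytoplasm. HNRNPA1-205, whose stop codon is that of a coding transcript, was at 169 TPM in the control cytoplasm, 103, 98.9 and 106 in control nuclei, 200.1 and 154 in RNAi cytoplasm, and 84.0, 95.6 and 91.3 in RNAi nuclei. HNRNPA1-205 was lower in nuclei by 1.31 ± 0.12 (log2, edgeR adjusted p = 0.000575) with every cytoplasmic sample above every nuclear one, and the whole gene fell by 0.89 ± 0.08.

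The 8 lower splicing-factor members were HNRNPA1-205, HNRNPA2B1-203, HNRNPUL1-208, SF1-207, LUC7L2-209, PCBP2-208, QKI-204 and TRA2B-205. HNRNPA2B1-203 was at 29.5 TPM in the control cytoplasm, 6.99, 6.06 and 9.0 in control nuclei, 17.0 and 15.4 in RNAi cytoplasm, and 3.52, 4.33 and 3.53 in RNAi nuclei. It fell by 2.45 ± 0.22 (log2) from RNAi cytoplasm to nuclei (edgeR adjusted p = 0.000521) while its gene differed by -0.14 ± 0.11, and its share was 5.32% to 6.30% in RNAi nuclei and 23.8% and 24.2% in RNAi cytoplasm. TRA2B-205, with the poison exon of a splicing activator, was at 6.53 TPM in the control cytoplasm and 6.61 and 1.14 in RNAi cytoplasm, but at 0.0504, 0.374 and 0 in control nuclei and 0 in all 3 RNAi nuclei. TRA2B-205 stayed below 1 TPM in every nuclear sample, so the rule admitted it through cytoplasm alone and its side is no result. It stops in an exon of no coding transcript, as do SRSF3-203 and U2AF2-203, which were higher in RNAi nuclei.

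**Figure D4:**
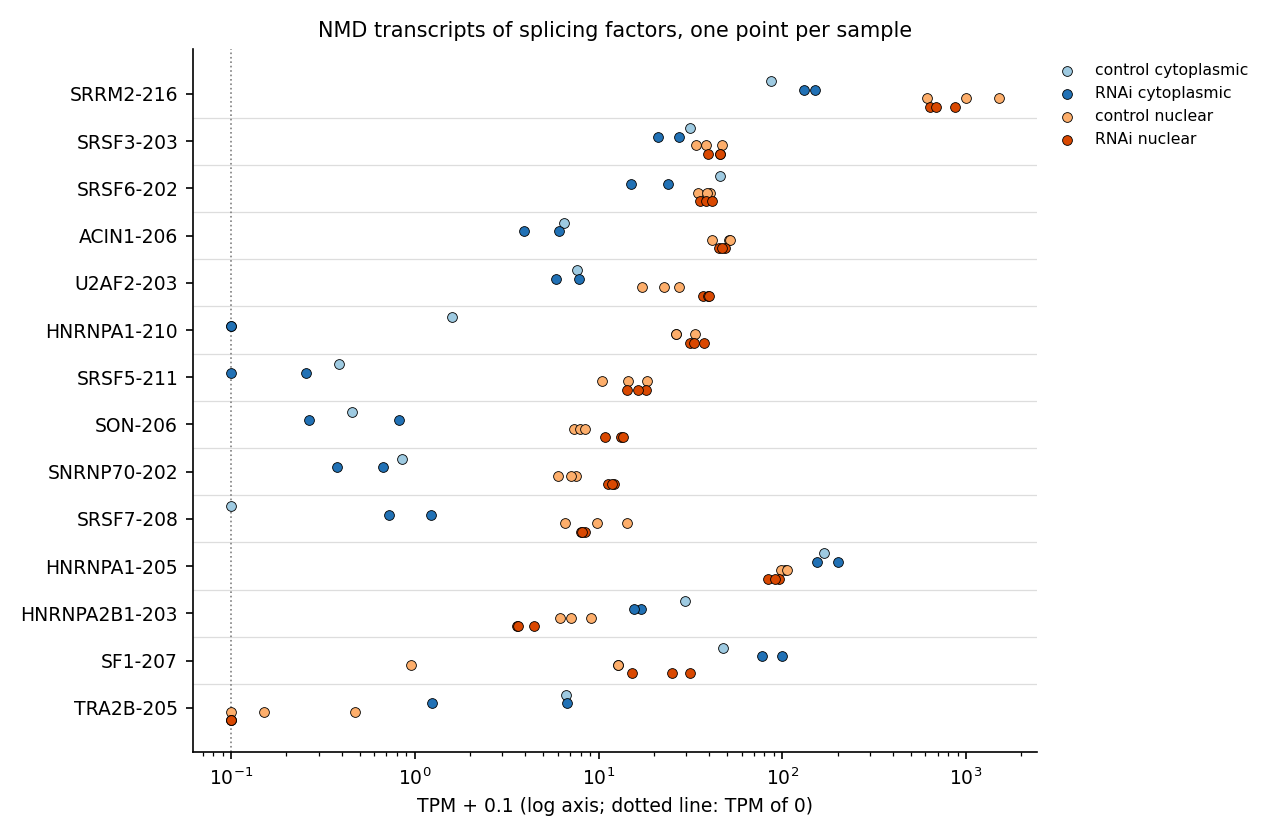
TPM (plus 0.1, log axis) of 14 splicing-factor members in each of the 9 samples, 1 point per sample, coloured by group. In the 10 upper rows the RNAi nuclei (dark orange) lie to the right of the RNAi cytoplasm (dark blue), and in the 4 lower rows, such as HNRNPA2B1-203 (3.52 to 4.33 against 15.4 and 17.0 TPM), to the left.

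Ribosomal-protein genes gave 34 members from 23 genes, 25 of them tested. Their levels were higher in RNAi nuclei for 7 and lower for 4 (28.0% and 16.0%), close to the 28.0% and 14.7% of all transcripts. Their share of the gene was higher for 10 of 25 and lower for 0 in limma, with 10 at an unadjusted p under 0.05, beside 16.6% and 12.7% of all transcripts called in the share test, and edgeR's transcript usage test called 6 higher and 0 lower. Of the 22 detected in both fractions, 7 had a higher share and 0 a lower one, for which the 16.6% and 12.7% are no background. Over the 25 the median share difference was 0.72 (log2 odds), against -0.06 for all members. Ribosomal-protein genes as wholes tended to be lower in nuclei where these members were named, RPS2 by 1.29, RPL35 by 0.95 and RPL35A by 0.51 (log2).

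RPS2-212 was at 28.2 TPM in the control cytoplasm, 114.5, 95.0 and 198 in control nuclei, 29.8 and 17.4 in RNAi cytoplasm, and 179, 226 and 228 in RNAi nuclei. All nuclei were above all cytoplasmic samples, by 2.83 ± 0.39 (log2) after RNAi (edgeR adjusted p = 0.00197), and the share was 1.90% to 4.85% in nuclei and 0.203% to 0.378% in cytoplasm. RPL35A-203 was at 0.430 TPM in the control cytoplasm, 5.845, 8.48 and 5.95 in control nuclei, 0 and 0.588 in RNAi cytoplasm, and 8.31, 11.3 and 11.04 in RNAi nuclei. RPL35-204 showed the same order, with 5.98 to 18.1 TPM in nuclei and at most 0.757 TPM in cytoplasm. RPL35A-203 and RPL35-204 stayed below 1 TPM in every cytoplasmic sample, so the rule admitted them through nuclei alone and their side is no result. RPL13A-210, RPL27A-212, RPL14-204 and RPS14-204 were the other members called higher.

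Genes of translation factors and tRNA synthetases gave 40 members, with 6 of 33 tested higher in RNAi nuclei and 0 lower in edgeR (7 at an unadjusted p under 0.05, none of them lower). The 6 are 18.2% of those tested, below the 28.0% of all transcripts called higher, and 14.7% of all were called lower. DESeq2 called 7 higher and 0 lower, and limma on log2 TPM 9 and 0. Among the 6 was EEF2KMT-208, whose gene encodes a methyltransferase of an elongation factor rather than a factor. For the share, 9 of 31 were higher (29.0%) and 0 lower in limma, beside 16.6% and 12.7% of all transcripts, and 6 and 0 in edgeR's usage test. These counts are not restricted to members detected in both fractions, and the rule favoured nuclei. EIF3D-208, of a cap-binding subunit of the initiation factor eIF3, was at 2.94 TPM in the control cytoplasm, 24.2, 36.4 and 29.6 in control nuclei, 2.88 and 1.5 in RNAi cytoplasm, and 30.2, 34.5 and 27.7 in RNAi nuclei. The share of EIF3D-208 was 12.8% to 17.25% in nuclei and 1.08% to 1.66% in cytoplasm (log2 odds 3.52 ± 0.25 after RNAi, limma adjusted p = 0.000118). The gene EIF3D differed by only -0.37 ± 0.12 after RNAi.

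Of 28 tested members of respiratory chain and ATP synthase genes, 6 were lower in RNAi nuclei (21.4%) and 1 higher (3.57%), beside 14.7% and 28.0% of all transcripts, with a median of -0.76 (log2). The difference from all transcripts was not tested. The lower ones were NDUFS7-205, UQCRC2-206, UQCRC2-205, NDUFA3-206, NDUFS1-208 and COX18-205, and the higher one NDUFA7-203. Among the 11 members of mRNA export and m6A genes, 4 were higher (DDX39A-208, DDX39B-221, METTL3-206 and METTL3-211) and 2 lower (DDX39A-202 and FTO-205), which is 36.4% and 18.2% beside 28.0% and 14.7% of all transcripts. DDX39A encodes an export helicase of the TREX machinery, and DDX39A-202 was at 3.24 TPM in the control cytoplasm, at 1.92 and 5.58 in RNAi cytoplasm, and at 0 in all 6 nuclei, which is at least 19.44-fold lower after RNAi. METTL3-206, of the catalytic methyltransferase, was at 0.557 TPM in the control cytoplasm, 1.15, 3.94 and 2.87 in control nuclei, 0.315 and 0 in RNAi cytoplasm, and 4.085, 2.89 and 3.82 in RNAi nuclei. METTL3-206 was higher in RNAi nuclei by 4.12 ± 1.03 (log2, edgeR adjusted p = 0.0196). By the rule METTL3-206 could be a member only through nuclei and DDX39A-202 only through cytoplasm, so their sides are no result.

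The largest fitted differences after RNAi belonged to members at or near 0 in 1 fraction, for which only a bound can be given. MCM2-207, of the replicative helicase, was at 12.3, 11.02 and 10.7 TPM in RNAi nuclei and 0 in both RNAi cytoplasmic samples, at least 116.6-fold higher. PODXL-203, of the sialomucin podocalyxin, was at 5.41, 6.32 and 3.35 TPM against 0, at least 133.7-fold higher, and MARS1-204, of methionyl-tRNA synthetase, at 5.20, 3.55 and 3.04 against 0, at least 48.9-fold. EVL-210, METTL17-216, SLC39A9-207 and SETD2-205 completed the 8 named on the higher side beside HNRNPA1-210. On the lower side, SOD2-215, of mitochondrial superoxide dismutase, was at 4.85 and 3.90 TPM in RNAi cytoplasm and at 0, 0 and 0.201 in RNAi nuclei, and DDX49-213, DHX30-202, SLC2A11-211, ALG3-204 and ADA-208 were similarly near 0 in RNAi nuclei.

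Level and share could part ways. Of the 531 members with a higher level in RNAi nuclei that entered the share test, 294 also had a higher share and 16 a lower one, while their gene was higher for 217 and lower for 85. Of the 344 members with a lower level, the share was lower for 100 and higher for 1, and the gene was lower for 260 and higher for 3. In all, 373 member shares were higher in RNAi nuclei (15.5%) and 234 lower (9.69%), beside the 16.6% and 12.7% of all transcripts (274 and 47 with edgeR's usage test), and in members of both fractions 157 were higher and 212 lower of 1921. The 16.6% and 12.7% are no background for the counts in both fractions. Without the first RNAi cytoplasmic sample 298 were higher and 122 lower, and without the second 285 and 107.

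KAT2A-202 was a minor isoform of its gene in cytoplasm and mostly the leading one in nuclei. KAT2A encodes the GCN5 histone acetyltransferase, and this member spans chromosome 17 at 40265136-40273076 with 18 exons, 12 junctions after the stop and 1434 nt from the stop to the last one. It made up 14.8% of its gene in the control cytoplasm, 64.0%, 46.4% and 63.8% in control nuclei, 11.8% and 11.7% in RNAi cytoplasm, and 67.1%, 57.3% and 59.7% in RNAi nuclei. In TPM that was 1.78 to 3.23 in cytoplasm and 21.5 to 34.3 in nuclei, with no overlap (log2 odds 3.30 ± 0.36 after RNAi, limma adjusted p = 0.000550). TPM4-201, of a tropomyosin, differed in the opposite direction, with 93.7% of its gene in the control cytoplasm, 55.1%, 58.0% and 59.3% in control nuclei, 100% and 89.2% in RNAi cytoplasm, and 47.3%, 42.0% and 42.1% in RNAi nuclei (log2 odds -4.29 ± 0.59, limma adjusted p = 0.00152). UBE2D4-209, RINT1-208, ATP5MF-PTCD1-203, TVP23C-208, BOLA2-SMG1P6-202 and OARD1-213 were further named members with higher shares. POLR2J3-219, CTPS1-203, PAQR3-212, RTL5-201, CEP95-208 and DNTTIP2-201 were named on the lower side, although the levels of CEP95-208 and DNTTIP2-201 differed by 1.26 and 0.63 (log2), upward and not called.

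In control cells the nucleus was compared with a single cytoplasmic sample, whose spread is taken from the other groups. There 395 members were higher in nuclei (16.0%) and 284 lower (11.5%), beside 20.4% and 10.8% of all transcripts (253 and 223 members with a replicate block), and in members of both fractions 149 and 278 of 1962. The 20.4% and 10.8% cover all transcripts tested and are no background for this or the later count in both fractions. This comparison shares no sample with the one after RNAi. It does share the estimate of the spread and the members, which were chosen in part by nuclear TPM. Of its higher members 315 were also higher after RNAi, which is 79.8% of the 395 and 57.9% of the 544. Of its lower members 182 were also lower after RNAi, 64.1% of the 284 and 51.3% of the 355, and 6 members were called in opposite directions. The overlap over all transcripts tested is not given beside these counts. Splicing-factor members were higher for 21 and lower for 10 of 71, and 9 and 9 of the 50 found in both fractions. Member shares were higher for 221 and lower for 119 of 2414, beside 12.2% and 6.22%.

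The change of the nuclear/cytoplasmic ratio with RNAi, the contrast at the centre of the study, was called for few members. The ratio rose for 21 of 2470 (0.850%) and fell for 11 (0.445%), beside 0.596% and 0.374% of all transcripts. Leaving out the first or the third RNAi nuclear sample or the third control nuclear sample gave 0 calls, leaving out the second RNAi nuclear sample gave 2, the first or second control nuclear sample 6 or 10, and the first RNAi cytoplasmic sample 55. In the share test 0 ratios were called in limma, with 174 at an unadjusted p under 0.05, beside 0.0026% and 0.00779% of all transcripts, and edgeR's usage test called 9 higher and 10 lower.

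The 16 members named for the ratio all had a cytoplasmic group at or near 0. MCM2-207 was at 4.215 TPM in the control cytoplasm and 5.56, 16.0 and 8.18 in control nuclei, beside the 0 in RNAi cytoplasm given above. HNRNPA1-210 and RBM39-219 are splicing-factor members whose ratio also rose. RBM39-219 was at 0.641 TPM in the control cytoplasm, 2.26, 3.06 and 2.42 in control nuclei, 0 in both RNAi cytoplasmic samples, and 3.26, 3.59 and 4.55 in RNAi nuclei (edgeR adjusted p for the ratio 0.0675). A group at 0 sets such changes, and the fitted sizes are no bounds.

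The named members whose ratio fell had a control cytoplasmic sample at 0.00377 TPM or less. GGA3-209, of a Golgi-localised adaptor, was at 0 TPM in the control cytoplasm, 8.81, 9.80 and 8.69 in control nuclei, 5.19 and 4.35 in RNAi cytoplasm, and 7.01, 6.42 and 5.29 in RNAi nuclei. SRSF7-208 was also at 0 to the printed precision in the control cytoplasm (1.65e-09 TPM), at 6.45, 14.1 and 9.70 in control nuclei, 1.12 and 0.622 in RNAi cytoplasm, and 8.37, 7.90 and 8.04 in RNAi nuclei. CWF19L1-204, LZTR1-203, ARID1A-208, ALG3-202, BLM-206 and ENST00000519541 had the same form. These changes rest on 1 library, and what part that library has in them was not tested.

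RINT1-208, which the rule named for its share, was also called for the ratio and had reads in every sample. RINT1 encodes a protein of vesicle transport between Golgi and endoplasmic reticulum. RINT1-208, on chromosome 7 at 105172659-105208123, was at 7.03 TPM in the control cytoplasm, 3.595, 3.82 and 3.07 in control nuclei, 1.28 and 1.17 in RNAi cytoplasm, and 4.02, 5.93 and 4.86 in RNAi nuclei. It was higher in cytoplasm than in nuclei in control and lower after RNAi, a ratio change of 2.74 ± 0.32 (log2; edgeR adjusted p = 0.0667). The share of RINT1-208 was 63.0% in the control cytoplasm, 33.5% and 30.6% in RNAi cytoplasm, 48.5% to 57.35% in control nuclei and 65.6% to 79.05% in RNAi nuclei. The gene's ratio changed by 1.46 ± 0.20.

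**Figure D5:**
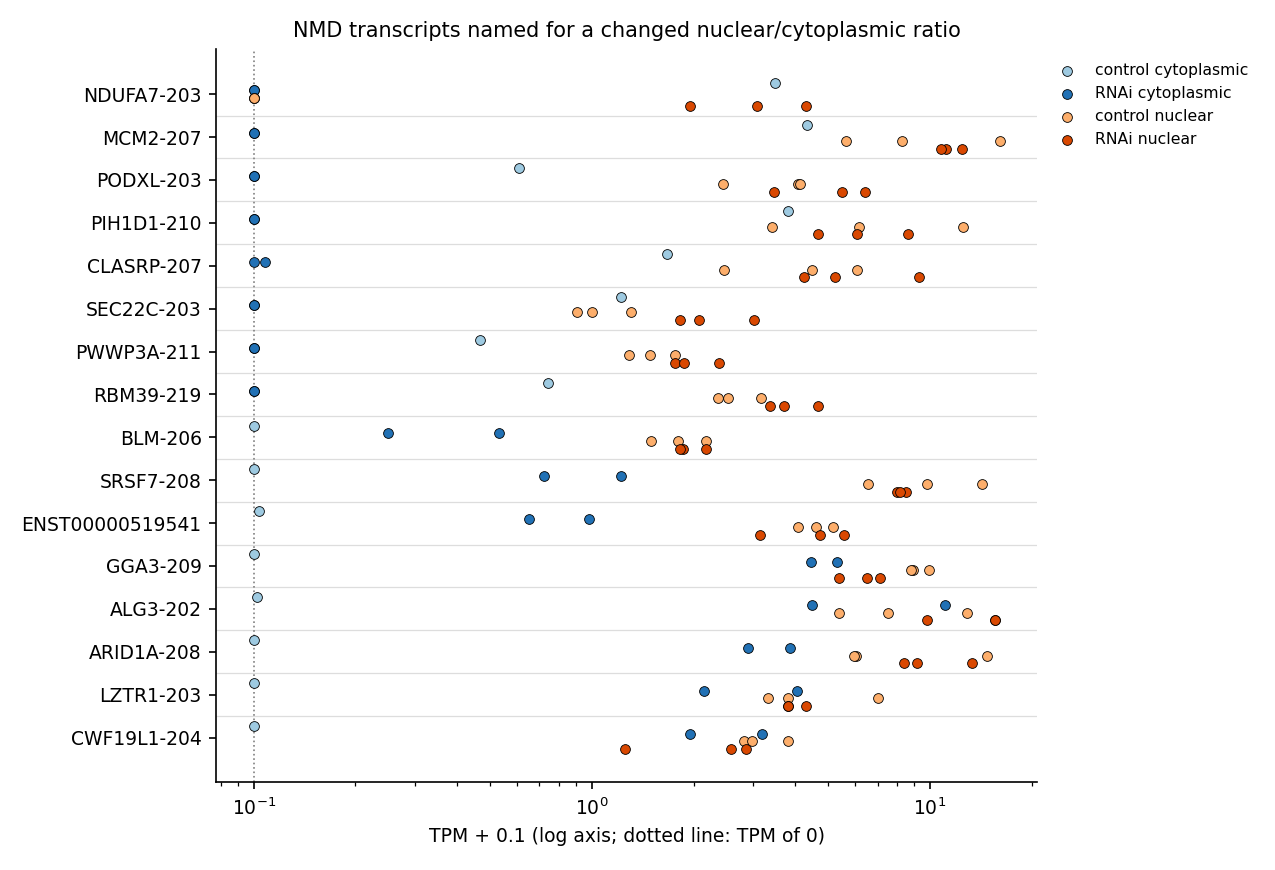
TPM (plus 0.1, log axis, with the dotted line at a TPM of 0) of the 16 members whose nuclear/cytoplasmic ratio changed most with RNAi, 1 point per sample. In the upper 8 rows the RNAi cytoplasm (dark blue) sits at or next to the dotted line, and in the lower 8 rows the single control cytoplasmic sample (light blue) does.

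In RNAi against control cytoplasm, 2 samples against 1, 21 members were higher and 35 lower of 2470, beside 1.06% and 1.54% of all transcripts. Leaving out the third RNAi nuclear sample, which only enters the estimate of the spread, gave 0 calls, leaving out the first RNAi nuclear or the third control nuclear sample gave 16, the second RNAi nuclear sample 20, and the first RNAi cytoplasmic sample 92. SRSF6-202, HNRNPDL-202, HNRNPA1-210, RBMX-212 and RBM39-219 were the splicing-factor members called lower and SRSF7-208 the one called higher. For the share, 1 member, GGA3-209, was called, beside 0.0389% of all transcripts higher and 0.013% lower.

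The genes of the NMD pathway themselves shifted little in nuclei. Of 24 genes, SMG8, which restrains the kinase SMG1, was higher in RNAi nuclei by 0.55 ± 0.10 (log2; edgeR adjusted p = 0.0295). MAGOHB, a copy of the exon junction protein MAGOH, was lower by 0.91 ± 0.19 and PNRC2, which links UPF1 to decapping, by 0.59 ± 0.18 (edgeR adjusted p = 0.0383 and 0.09075). That is 1 higher and 2 lower, beside 2.47% and 2.42% of all genes, and leaving out the second RNAi, the third RNAi or the third control nuclear sample left 0 calls, the first RNAi nuclear sample 1, and the first control nuclear sample 5. UPF1 differed by 0.09 ± 0.08 in nuclei and was not called.

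Their nuclear/cytoplasmic ratio changed more often, for 6 genes upward and 2 downward, beside 10.4% and 7.87% of all genes. The ratio rose for UPF2 by 2.34 ± 0.40, the exonuclease XRN1 by 2.29 ± 0.42, UPF3B by 1.88 ± 0.35, SMG1 by 1.81 ± 0.58, EIF4A3, the core helicase of the exon junction complex, by 1.19 ± 0.29, and DCP2, the decapping enzyme, by 1.05 ± 0.36 (log2; edgeR adjusted p = 0.00733 to 0.0872). It fell by 0.51 ± 0.14 for UPF1 and 0.58 ± 0.17 for SMG9 (edgeR adjusted p = 0.0453 and 0.0522). All of these use the single control cytoplasmic sample. In cytoplasm, 9 of the 24 were lower after RNAi and 2 higher, beside 14.2% and 10.4% of all genes.
UPF2 itself was lower in RNAi cytoplasm by 1.85 ± 0.33 and UPF1 higher by 0.60 ± 0.12. ETF1-207, a member from the gene of the release factor that reads stop codons, was lower in control nuclei than in control cytoplasm by 3.37 ± 0.71 (log2; edgeR adjusted p = 0.018).

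Genes known for RNAs that NMD degrades were listed as a further comparison at the gene level. They comprise snoRNA host genes and stress-response genes, 12 in all, and overlap the members, since TBL2 has 4 of them, UPP1 2 and ATF3 1. In RNAi against control nuclei edgeR and DESeq2 each called 0 of the 12, with 3 and 1 at an unadjusted p under 0.05, and the differences ran from -0.62 for DDIT3 to 0.37 for SNHG12 (log2). Between fractions 6 were higher in nuclei and 1 lower, both after RNAi and in control, beside 32.9% and 24.9% of all genes after RNAi and 28.0% and 22.7% in control. SNHG12 (3.66 ± 0.36), SNHG1 (1.90 ± 0.20), GAS5 (1.77 ± 0.21), GADD45B (1.05 ± 0.23), TBL2 (0.81 ± 0.12) and DDIT3 (0.63 ± 0.29) were the higher ones after RNAi (log2), and ATF4, the translation-regulated stress factor, the lower one (-0.93 ± 0.09). SNHG15, ZFAS1, ATF3, UPP1 and GADD45A were not called in either comparison between fractions.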

How the data were processed

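RNA of nuclear and cytoplasmic HEK293 fractions was sequenced from Lexogen SENSE mRNA libraries. The authors removed 9 nt of read 1 and 6 nt of read 2 with cutadapt, merged lanes and ran salmon against Ensembl version 75 transcripts of hg19. Per sample the authors deposited salmon's estimated count per transcript, not normalized between samples, and TPM values scaled by salmon. The salmon version is not given in the sources used here. Salmon divides reads among transcripts that share exons, so members of 1 gene trade reads, and the error of that division was not analysed here.

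Transcript types, stop codons and sequences came from GENCODE version 44 mapped to GRCh37. Of 215170 transcripts 183122 (85.1%) matched without version number. Of the members, 89.1% had the same length in both annotations. The members and lists were chosen with earlier results of these data known. Estimated counts were rounded and tested with edgeR 4.0.16 (R 4.3.3, TMM, quasi-likelihood F test, Benjamini-Hochberg) over 50857 transcripts or 16181 genes with at least 10 counts in at least 3 samples. All 9 samples in 4 groups shared 1 estimate of the spread, with 5 residual degrees of freedom. Standard errors are the log2 fold change over the square root of F. Shares were tested with limma 3.58.1 on log2 odds with 0.5 TPM added and a variance trend on abundance. Code was tested on simulated data. There, for RNAi against control nuclei, edgeR recovered 56.5% of changes of 2 (log2) and the share test 18.9%. Changes of 4 were recovered at 90.5% and 80.5%. The changed transcripts were drawn from those with higher counts.

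Members named were the 8 of highest mean TPM, up to 8 called per direction and comparison by size (mean TPM of at least 1, sign held in every fit without 1 sample), and called members of the lists. Bounds for groups at 0 use 3 counts per library and, like all limits from depth, cover counting error only. At the sample depths 3 counts are 0.158 to 0.258 CPM. Alternatives were DESeq2 1.42.0, its size factors, limma on log2 TPM, no filter, a replicate block, each sample left out, other pseudocounts, a usage test, a 0.05 threshold and other membership rules. Results for 1 gene are not reported here.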

Additional observations from a re-analysis of the deposited data

Results flagged for a closer look

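The nuclear/cytoplasmic ratio of 19 named members differed between RNAi and control cells by the test of that difference itself (edgeR, adjusted p under 0.1). The fitted log2 changes were 13.87 for NDUFA7-203, 10.34 for MCM2-207, 8.97 for PODXL-203, 7.7 for PIH1D1-210, 7.41 for CLASRP-207, 7.35 for SEC22C-203, 7.01 for PWWP3A-211, 6.59 for RBM39-219, 6.43 for FAM86B1-209, 6.32 for HNRNPA1-210 and 2.74 for RINT1-208. They were -10.09 for CWF19L1-204, -10.02 for LZTR1-203, -9.85 for ARID1A-208, -9.61 for ALG3-202, -9.16 for GGA3-209, -8.44 for ENST00000519541, -7.95 for SRSF7-208 and -7.37 for BLM-206. Apart from RINT1-208, each had a cytoplasmic group at or next to 0, so that these sizes are fitted values and no bounds. FAM86B1 belongs to a family of near-identical copies, and its value is uncertain.

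By the same test at the gene level, the ratio differed by 2.34 for UPF2, 2.29 for XRN1, 1.88 for UPF3B, 1.81 for SMG1, 1.19 for EIF4A3, 1.05 for DCP2, 0.89 for WTAP, -0.51 for UPF1, -0.58 for SMG9 and -0.58 for TBL2 (log2). A further 5233 transcripts without an entry in the annotation used here reached 1 TPM in at least 3 samples, and how many of them are NMD transcripts is not known. No group had 4 or more samples, so single samples were not tested as outliers.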

How the results depend on the processing

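For RNAi against control nuclei the 0 calls became 76 with DESeq2, 8 and 6 with limma on log2(TPM + 0.1) and log2(TPM + 1), and 1 without the filter, and stayed at 0 in all fits that left out a sample. For nucleus against cytoplasm after RNAi, 899 calls became 552 in members of both fractions and 730 to 914 with samples left out. In control, 679 calls became 395 without the filter, 441 at a 0.05 threshold and 427 in members of both fractions, with 510 to 744 when samples were left out. The 32 ratio calls became 110 with DESeq2, 4 with limma on log2(TPM + 1), 16 without the filter and 0 at 0.05, and ranged from 0 to 55 with samples left out. The 56 calls in cytoplasm became 170 with DESeq2, 28 and 2 with limma on log2 TPM, 27 without the filter and 19 at 0.05, with 0 to 92 when samples were left out. For the share in nuclei, 3 calls became 16 with the usage test, 7 and 1 with pseudocounts of 0.1 and 1 TPM, and 0 without the filter or at 0.05 (0 to 3 with samples left out). For the share between fractions after RNAi, 607 calls became 321 with the usage test and 369 in members of both fractions (392 to 632), and for the share ratio, 0 became 19 with the usage test, 2 without the filter and 13 with 0.1 TPM added (0 in each fit with a sample left out). With samples left out, the 3 NMD pathway genes ranged from 0 to 5, and the 44 splicing-factor members from 31 to 44 with 24 in both fractions. The 10 ribosomal-protein shares ranged from 8 to 10, with 6 in the usage test and 7 in both fractions. The 167 members stopping in an exon of no coding transcript ranged from 138 to 175, with 88 in both fractions. The cause of these changes was not tested.

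Deviations from the group mean correlated at 0.064, 0.025 and 0.045 between control and RNAi nuclei of the same replicate number. Between nuclei of different numbers the correlations were lower, from -0.059 to 0.018. All were small, and whether replicate numbers pair the samples was not tested. Nuclear and cytoplasmic samples were not compared in this way. With a replicate block the ratio calls, the calls in cytoplasm and the share calls in nuclei were each 0. In control, members higher in nuclei went from 395 to 253 and the total from 679 to 476. The other totals moved by less than 1.5 times. For 58 results on named members, 369 of 506 fits with a sample left out and 255 of 330 other fits kept direction and call, and 0 reversed. The control comparisons have no fit without the single control cytoplasmic sample. Low counts limit isoform differences, and members at 0 allow up to 3 counts.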
